A study of Zea mays with 27 samples.

Results

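Leaves of maize plants grown under a plastic labelled PE were compared with leaves of the same genotype grown under a plastic labelled CA, on arrays that carried both RNAs. Of the 27 dual-colour cDNA arrays in the series, 5 were chosen because their titles pair PE and CA leaf of a single genotype: 1 array of B,Pl, 1 of bz2, 1 of a line labelled mutator, and 2 arrays of b,pl that form a dye swap. The other 22 arrays served to estimate dye effects and the spread, as a second route to the B,Pl comparison and as arrays for comparison. They hold leaves labelled LE, leaves 1 day after PE was removed and leaves given UV-B for 8 hours. Others hold greenhouse leaves without UV-B, and PE or CA leaves of another genotype against b,pl CA. The series profiles how adult maize leaves with differing flavonoid content respond to ultraviolet radiation. All groups used here were adult leaf, sampled as total RNA, and all plants of the 5 arrays stood under a plastic.

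B and Pl are regulators that switch on the anthocyanin pathway in maize leaves, and b and pl are weak or inactive forms of them. Bz2 encodes a glutathione S-transferase that is needed to move anthocyanin into the vacuole, and Mutator is a family of maize transposons. The labels give no further alleles, and they do not say how many plants were pooled or whether the arrays of the swap held RNA of separate plants. In outdoor UV work polyester films are commonly used to remove UV-B and cellulose acetate films to let it through, but the labels give the plastics by letters only. Flavonoids absorb UV-B in the leaf epidermis, and UV-B damages DNA and proteins of plant cells.

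Each value below is a log2 ratio of PE to CA, averaged over the 3 spots of a cDNA, centred on the median of its array and given a plus sign when PE RNA was labelled Cy5. The labels do not say which dye is the numerator of the deposited ratio. A positive value means more RNA under PE if the ratio is Cy5 over Cy3, and less if it is Cy3 over Cy5. On the B,Pl, bz2 and mutator arrays PE was always Cy5, so an effect of PE and an effect of the dye cannot be told apart on those 3 arrays alone. For b,pl, PE was Cy5 on replicate 1 and Cy3 on replicate 2. The arrays measured 5149 to 5399 of 5400 cDNAs, the fewest on b,pl replicate 2, and 811 cDNAs carried the names of 213 genes. Before centring, the median over cDNAs was −0.35 for B,Pl, −0.37 for bz2 and −0.47 for mutator, and for b,pl it was 0.05 on replicate 1 and 0.36 as deposited on replicate 2. The number of arrays limits the precision throughout.

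The first question was whether the genotypes answered the change of plastic in the same way. The B,Pl, bz2 and mutator arrays followed each other over the array as a whole, and neither b,pl array followed them. Across cDNAs, which are not independent replicates, the Spearman correlation was 0.66 between B,Pl and mutator (5392 cDNAs), 0.61 between bz2 and mutator and 0.54 between B,Pl and bz2. These pairs share no RNA but share the dye orientation. Between b,pl replicate 1 and the mean of the 3 arrays it was 0.030, and between b,pl replicate 2 and that mean it was 0.091. Between both b,pl arrays it was −0.10, and 45.8% of cDNAs had the same sign on them, against 76.7% for B,Pl and mutator, 72.9% for bz2 and mutator and 68.9% for B,Pl and bz2. Arrays of leaves labelled LE, with the same dye orientation and another genotype, had Spearman correlations of −0.32 to −0.15 with the 3 PE arrays (9 pairs). All 38 pairs of these 3 arrays with other arrays of the same dye orientation and no shared group had correlations between −0.37 and 0.42. Of these, 10 were above 0. The highest was B,Pl PE replicate 2 (PE in Cy5, conflicting dye labels) with mutator. That array had 0.34 with bz2 and 0.57 with the B,Pl array. B,Pl PE replicate 3 (PE in Cy3) had −0.32, −0.15 and −0.45 with mutator, bz2 and the B,Pl array. Both replicates were run against b,pl CA and share the PE group with the B,Pl array. Their correlations thus differed in sign with the dye of PE, and the cause was not tested. The array of bz2 CA against b,pl CA, which holds no PE RNA and has conflicting dye labels, had 0.31 with B,Pl and 0.33 with mutator, so positive correlations were not limited to PE arrays.

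**Figure D1:**
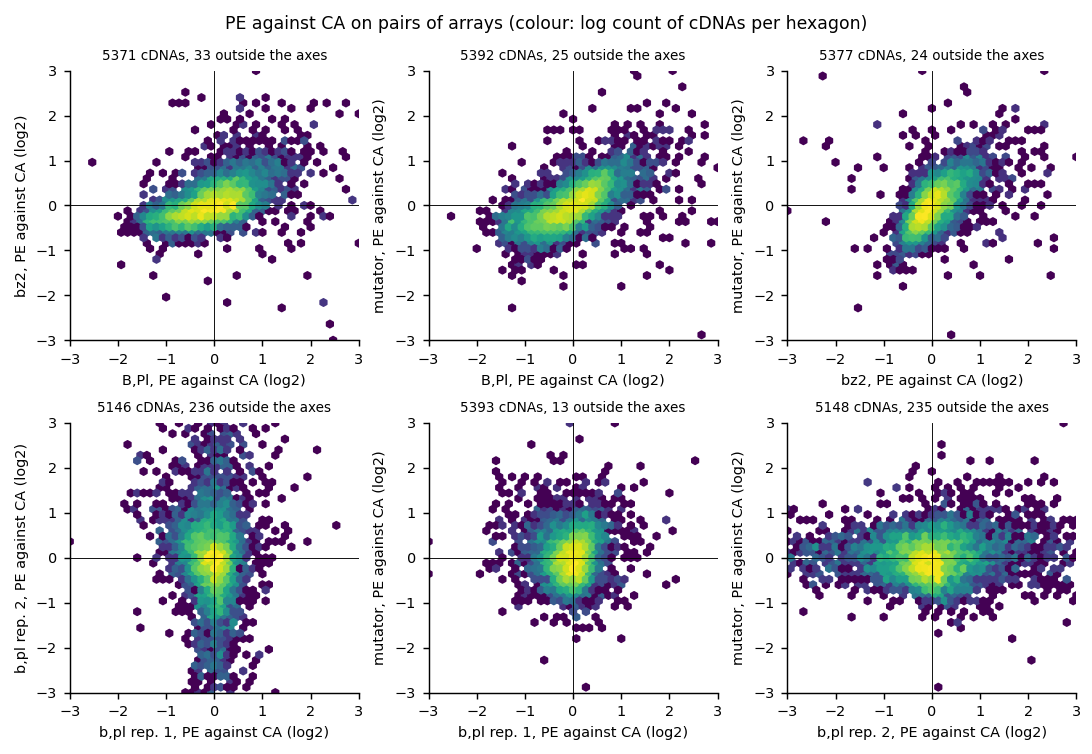
PE against CA (log2, centred) on pairs of arrays, with colour for the log count of cDNAs per hexagon. In the upper row B,Pl, bz2 and mutator form slanted clouds (Spearman 0.54 to 0.66), while the lower row, with the b,pl arrays, shows round or flat clouds.

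Values also drifted along the order of the array. The median of the first 540 cDNAs in that order was −0.17 on B,Pl, −0.08 on bz2 and −0.07 on mutator, and that of the last 540 was 0.19, 0.10 and 0.16 on the same arrays. On b,pl replicate 2 it ran the other way, 0.13 for the first 540 and −0.43 for the last. When a running median of 51 neighbouring cDNAs was taken off each array, an alternative chosen after seeing the data, the correlation was 0.58 between B,Pl and mutator, 0.55 between bz2 and mutator and 0.47 between B,Pl and bz2. The part of printing position in the results was not tested beyond this.

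In spread the arrays differed. A size of at least 1, a 2-fold difference, was reached by 5.84% of cDNAs in the positive and 5.8% in the negative direction on the B,Pl array. On bz2 these shares were 3.31% and 0.428%, and on mutator 2.94% and 0.945%. The b,pl array of replicate 1 had 0.945% and 1.78%, and replicate 2 had 12.1% and 11.3%. Replicate 2 was thus the widest of the 5 arrays, with an SD over cDNAs of 1.26, against 0.39 for replicate 1 and 0.683, 0.475 and 0.495 for B,Pl, bz2 and mutator.

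The cDNAs that differed most in all 3 genotypes were nearly all positive. Of 5370 cDNAs measured on the 3 arrays, 40 (0.745%) were at least 1 on each of B,Pl, bz2 and mutator, and 4 (0.0745%) were at most −1 on each. This is a description of 3 arrays, without a test. The 40 lay between 1.05 and 4.24 on B,Pl, between 1.00 and 2.32 on bz2 and between 1.01 and 3.07 on mutator. The split rests on centring: without it 10 cDNAs were positive and 31 negative. With the fitted dye term taken off it was 34 and 9, and with the running median taken off 24 and 10.

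In b,pl these 40 cDNAs had no common direction across the swap. On replicate 1 they had a median of −0.19, with 17 of 40 above 0. On replicate 2 the median was 1.38, with 31 of 36 above 0. Among the 36 measured on both b,pl arrays, 12 were positive on both, 1 was negative on both and 19 were negative on replicate 1 and positive on replicate 2. For 17 of those 19 this held without centring too, so their deposited ratio was negative whichever dye carried PE. The 4 negative cDNAs were all positive on b,pl replicate 2, from 0.61 to 2.05, and lay between −0.56 and 1.11 on replicate 1.

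**Figure D2:**
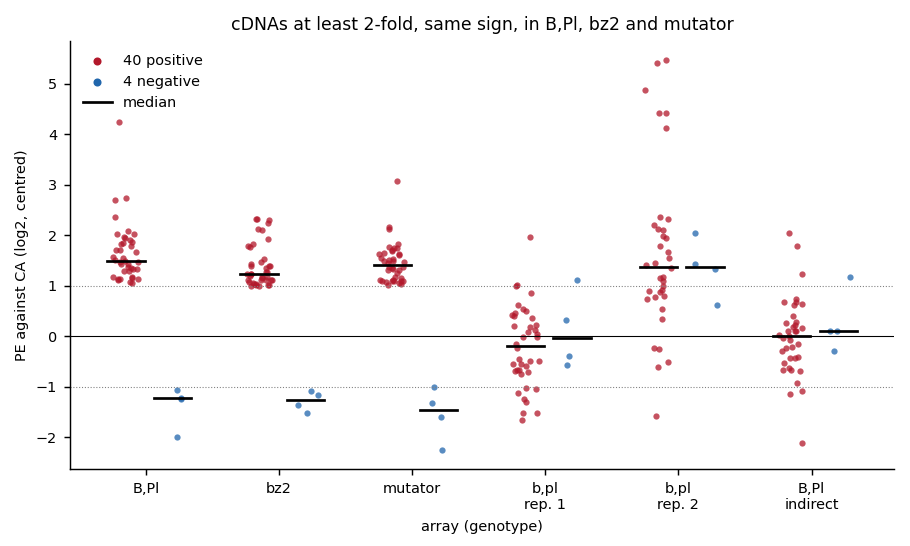
The 44 cDNAs at least 2-fold with the same sign in B,Pl, bz2 and mutator, by array, as log2 of PE against CA, with black lines for medians and dotted lines at −1 and 1. On the 3 arrays that define them the points lie beyond the dotted lines, whereas those of b,pl replicate 1 and of the indirect route for B,Pl spread around 0 and those of b,pl replicate 2 lie mostly above it.

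Only 4 of the 40 positive cDNAs were named, and 0 of the 4 negative ones. The cDNA of LON2 (LOC732810), a Lon-type ATP-dependent protease of organelles, stood at 1.56 in B,Pl, 1.23 in bz2 and 1.10 in mutator, and at −0.67 and 1.41 on b,pl replicates 1 and 2. It was high on all arrays but b,pl replicate 1. A cDNA of hox3 (LOC542440), a homeobox gene, stood at 1.33 in B,Pl, 1.11 in bz2 and 1.54 in mutator, and at 0.21 and 0.34 on b,pl replicates 1 and 2. A cDNA of ocl4 (LOC542009), a homeobox gene of the outer cell layer, stood at 1.36, 1.17 and 1.37 in the same order, and at 0.08 and −0.61 in b,pl. For these 2 homeobox cDNAs the 3 arrays lay above both b,pl arrays, as they did for 16.4% of 5123 cDNAs. Both were chosen for high values on the 3 arrays. The other 2 cDNAs of hox3 stood at −0.39 and −0.26 in mutator, and those of ocl4 at −0.31 and −0.22, so each gene rests on a single cDNA. Homeobox factors as a list (24 cDNAs) were not positive, with medians of −0.21 in B,Pl, 0.04 in bz2 and −0.17 in mutator. On all 3 arrays 4 of the 24 were positive and 9 negative, where 29.3% of all cDNAs were positive and 29.9% negative. A cDNA of nfd101, an HMG-box chromatin protein, stood at 1.97 in B,Pl, 1.12 in bz2 and 1.72 in mutator, and at −1.52 and 2.21 in b,pl, and 12 of the 19 cDNAs of that gene were negative in mutator.

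Among the unnamed cDNAs, 2 are given as examples chosen after their values were seen. The cDNA at spot 6133 was positive on all 5 arrays, at 1.71 in B,Pl, 1.83 in bz2 and 1.49 in mutator, and at 1.96 and 1.79 on b,pl replicates 1 and 2. The cDNA at spot 2983 was at −1.07, −1.08 and −1.60 in the 3 genotypes, and at 0.33 and 0.61 in b,pl. The groups did not overlap for it, as for the 17.7% of 5123 cDNAs that lay below both b,pl arrays.

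Just inside the 2-fold rule among genes with names were LON2, with 1.10 as the smallest of its 3 values, and hox3, with 1.11. Just outside were paa (LOC542021), with 0.96, and PDIL5-4 (LOC606417), a protein disulfide isomerase of the endoplasmic reticulum, with 0.78.

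Each of the 3 genotypes was also read on cDNAs chosen by the other arrays only. Of 62 cDNAs at least 1 in both bz2 and mutator, 61 were measured in B,Pl, where 55 were positive with a median of 1.28 and 40 were at least 1, against 5.84% of all cDNAs. Of 94 chosen on B,Pl and mutator, 71 of 86 were positive in bz2 and 40 were at least 1, against 3.31% of all. Of 87 chosen on B,Pl and bz2, 76 of 86 were positive in mutator and 40 were at least 1, against 2.94%. The 40 past 1 are by construction the same cDNAs in all 3 readings. The same 62 cDNAs were positive in 30 of 61 cases on b,pl replicate 1 and in 46 of 55 on b,pl replicate 2.

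B,Pl could also be reached without its own array, from 4 arrays against b,pl CA that balance the dyes (B,Pl PE minus B,Pl CA). On this indirect route the 40 positive cDNAs had a median of 0.00057, with 19 of 37 above 0, and 3 of 37 were at least 1. Over all 5105 cDNAs measured both ways the Spearman correlation between the B,Pl array and the indirect route was 0.18, and these share the B,Pl groups. With the indirect route in place of the B,Pl array, 11 cDNAs were shared, all positive, and 3 of them were among the 40. The Spearman correlation of the indirect route was 0.10 with bz2 and 0.12 with mutator, and it was higher with b,pl, at 0.19 for replicate 1 and 0.23 for replicate 2. In the indirect route b,pl CA stands in both terms and drops out as a group. The labels do not say which arrays held the same b,pl CA RNA, and a likeness to b,pl was not tested. Of the 62 cDNAs chosen on bz2 and mutator alone, 58 were measured on the indirect route. There 40 of 58 were positive, against 43.8% of all cDNAs, with a median of 0.22. At least 1 was reached by 11 of 58, against 7.73% of all. The likeness of B,Pl to bz2 and mutator was thus weaker on the indirect route than on its own array. The indirect route holds 1 array with conflicting dye labels.

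A test over the whole table called nothing. All 27 arrays entered a linear model in limma with a dye term, with Benjamini-Hochberg adjusted p over all cDNAs. For the mean of the PE effects of B,Pl, bz2 and mutator, 0 of 5377 cDNAs passed the threshold of 0.05, and 568 (10.6%) had an unadjusted p under 0.05. For that mean minus the PE effect of b,pl, 0 of 5375 passed and 356 (6.62%) had an unadjusted p under 0.05. Single genotypes gave 0 as well, with 488 (9.04%) at unadjusted p under 0.05 for B,Pl, 95 (1.77%) for bz2, 159 (2.94%) for mutator and 574 (10.6%) for b,pl. The smallest limma adjusted p was 0.39 for the shared effect, 0.671 for the difference from b,pl and 0.0929 for bz2. The dye term also had 0 calls, with 389 (7.2%) at unadjusted p under 0.05. On simulated data of this design, 58 of 100 cDNAs changed by 1 and 85 of 100 changed by 2 were recovered for the shared effect. For the difference these were 25 and 71. The simulated noise was independent between cDNAs, with the same spread for a cDNA on every array, and the change was equal in the 3 genotypes. Real arrays differed in spread and drifted with position, so these rates are not the power on the real data.

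Count and call depended on which arrays gave the dye term and the spread. Fitted to the 5 arrays alone, where the dye term comes only from the b,pl swap, limma called 922 cDNAs for the shared effect, 567 positive and 355 negative, and 887 for the dye. In that fit the shared effect of B,Pl, bz2 and mutator has the b,pl dye estimate subtracted from it. The b,pl and dye terms fit both b,pl arrays exactly. All spread in that fit thus came from differences among the single arrays of B,Pl, bz2 and mutator, taken as replicates. The calls for b,pl and the dye rest on that spread too. The difference from b,pl had 2 calls there. Without any dye term the 5 arrays gave 0 calls for the shared effect, with 1039 at unadjusted p under 0.05. Without b,pl replicate 1 the difference had 427 calls and b,pl itself 645, and without replicate 2 both had 0 in limma, with 206 and 77 cDNAs at unadjusted p under 0.05.

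Tubulins, the subunits of microtubules, were the largest named family and leaned the same way in all 3 genotypes. Their 117 cDNAs, from 5 alpha- and 2 beta-tubulin genes, had medians of −0.73 in B,Pl, −0.25 in bz2 and −0.32 in mutator, against 0.15 on b,pl replicate 1 and −0.15 on b,pl replicate 2. Negative cDNAs numbered 101, 97 and 96 on the 3 arrays, against 27 of 117 and 71 of 114 in b,pl. On all 3 arrays 89 of 117 (76.1%) were negative, compared with 29.9% of all cDNAs and 37.4% of the named ones. Close relatives can cross-hybridise on cDNA arrays, which was not tested here, and cDNAs of a family are not replicates.

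Among the tubulin genes, tua4 (57 cDNAs) had gene values, the median over its cDNAs, of −0.90 in B,Pl, −0.28 in bz2 and −0.32 in mutator, against 0.22 and −0.17 on b,pl replicates 1 and 2. For tua1 (30 cDNAs) they were −0.67, −0.27 and −0.31, against 0.13 and −0.21. tua3 (16 cDNAs) departed from this with −0.05, −0.10 and −0.03, against 0.11 and −0.06. The values of tua5 and tua6 were negative on the 3 arrays too, between −0.14 and −0.52. The beta-tubulin cDNA of tub6 had −1.47, −0.61 and −0.67, against −0.13 and 0.34, and that of tub3 had −0.24, −0.42 and −0.25, against 0.05 and 0.32. All 7 genes were thus negative in B,Pl, bz2 and mutator, and the b,pl arrays disagreed for tua4, tua1, tua3, tua6 and tub6.

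**Figure D3:**
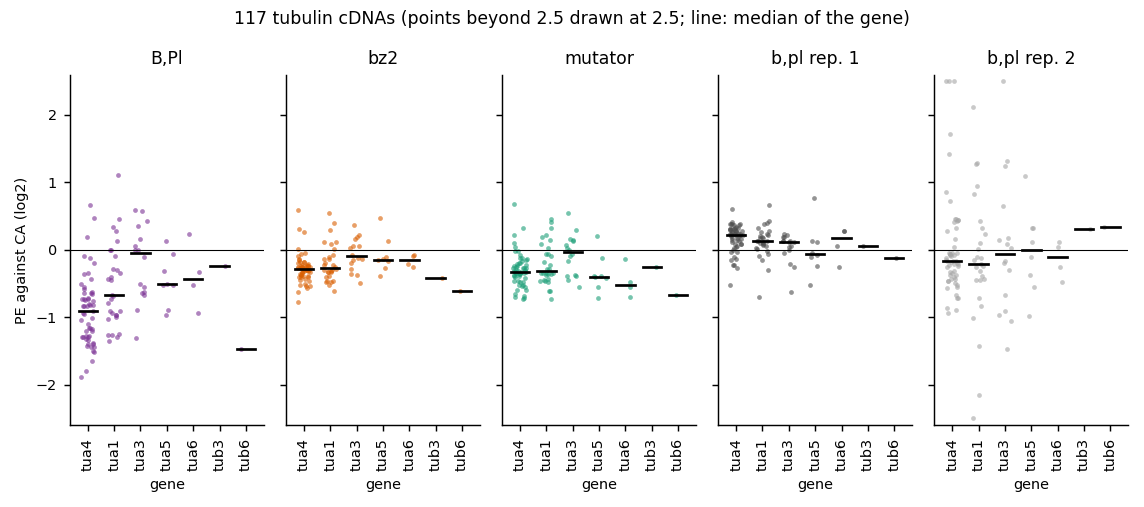
The 117 tubulin cDNAs by gene and array, as log2 of PE against CA, with black lines for the median of each gene. In B,Pl, bz2 and mutator the lines lie below 0, whereas on b,pl replicate 1 the lines of tua4, tua1, tua3, tua6 and tub3 lie above 0 and on replicate 2 the points spread widely.

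The tubulin medians changed little with the fitted dye term taken off (−0.72, −0.25 and −0.32) or with the running median taken off (−0.68, −0.22 and −0.26). On the LE arrays with the same dye orientation they were −0.10 in B,Pl, −0.18 in bz2, −0.12 in mutator and −0.04 in b,pl. Those arrays share the CA group of their genotype with the PE arrays. On the indirect route the B,Pl median was −0.13, and its PE arrays stood at −0.17 on replicate 2 and 0.17 on replicate 3. In the limma fit the shared effect had a tubulin median of −0.33, with 96 of 117 negative. Of the 117, 27 had an unadjusted limma p under 0.05, next to 10.6% of all cDNAs, and 0 passed after adjustment. The difference from b,pl had a median of −0.33. For it 7 of 117 had an unadjusted limma p under 0.05, a share near the 6.62% of all cDNAs.

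Gene lists were compared by their medians. Of 27 lists, 3 had a positive and 9 a negative median on all of B,Pl, bz2 and mutator. Without centring 0 were positive and 25 negative, since all 3 arrays then lie below 0. Lists were described by counts, with no test. Of the named cDNAs, from which the lists were drawn, 19.5% were positive and 37.4% negative on all 3 arrays.

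MADS-box factors, which control floral organ identity and flowering, were negative. Their 18 cDNAs had medians of −0.39 in B,Pl, −0.22 in bz2 and −0.37 in mutator, against −0.07 and −0.03 on b,pl replicates 1 and 2. On all 3 arrays 13 of 18 were negative, compared with 29.9% of all cDNAs and 37.4% of the named ones. Ribosomal proteins (15 cDNAs) had −0.24, −0.41 and −0.22, against 0.06 and −0.39 in b,pl, with 10 of 15 negative on all 3. After the running median was taken off, 12 of the 18 MADS-box and 6 of the 15 ribosomal protein cDNAs were negative on all 3. Under that setting this held for 1389 of 5370 cDNAs and for 259 of 810 named ones.

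Mitochondrial membrane proteins, among them the adenine nucleotide translocator ANT1 that exchanges ADP for ATP, had medians of −0.12 in B,Pl, −0.23 in bz2 and −0.08 in mutator, against 0.22 and −0.27 on b,pl replicates 1 and 2. On all 3 arrays 13 of 25 were negative, compared with 29.9% of all cDNAs and 37.4% of the named ones. On b,pl replicate 1, 4 of 25 were negative. With the running median taken off, the medians were −0.0096, −0.16 and −0.03 on the 3 arrays. On all 3 then 9 of 25 were negative, next to 1389 of 5370 cDNAs and 259 of 810 named ones. The 12 ANT1 cDNAs had gene values of −0.22, −0.23 and −0.19, against 0.30 and −0.41.

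The calcium and phosphorylation list of calmodulin, kinases and phosphatases was positive. Its 24 cDNAs had medians of 0.28 in B,Pl, 0.09 in bz2 and 0.30 in mutator, against −0.29 and 0.01 on b,pl replicates 1 and 2. On all 3 arrays 12 of 24 were positive, compared with 29.3% of all cDNAs, while 22 of 24 were negative on b,pl replicate 1. With the running median taken off, the medians were 0.12, 0.15 and 0.31 on the 3 arrays. On all 3 then 8 of 24 were positive, next to 1402 of 5370 cDNAs. The B,Pl median on the indirect route was −0.23. CaM1, a calmodulin that binds calcium, had 9 cDNAs with gene values of 0.53 in B,Pl, −0.01 in bz2 and 0.64 in mutator, against −0.48 and −0.60 in b,pl. All 9 were positive in B,Pl and in mutator and all 9 negative on b,pl replicate 1. The kinase CDPK (6 cDNAs) had 0.23, 0.47 and 0.10, against −0.02 and 0.11.

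The other positive lists were genes of DNA replication, repair and the cell cycle and chromatin enzymes and readers. The replication, repair and cell cycle list (12 cDNAs) had medians of 0.21, 0.23 and 0.12, against −0.05 and 0.14. The chromatin list (27 cDNAs) had 0.22, 0.13 and 0.22, against −0.03 and 0.01. Members went both ways, with 7 positive and 4 negative on all 3 arrays in the first list and 12 and 8 in the second, where 29.3% of all cDNAs were positive and 29.9% negative. With the running median taken off, the chromatin medians were 0.05, 0.12 and 0.09, with 12 positive and 5 negative. Those of the replication list were 0.11, 0.24 and 0.05, with 6 and 3. Of all 5370 cDNAs, 1402 were positive and 1389 negative on all 3 under that setting.

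Lists of stress, light and phenylpropanoid genes went different ways. Photosynthesis and chlorophyll binding (3 cDNAs, of fnr1 and Lhcb5-2) had medians of −0.05 in B,Pl, −0.09 in bz2 and −0.42 in mutator, against 0.28 and 0.22 on b,pl replicates 1 and 2, with fnr1 positive on the 3 arrays. Oxylipin enzymes (5 cDNAs), which make jasmonate and related signals, had −0.45, −0.08 and −0.24, against 0.12 and −0.22, with 3 of 5 negative on all 3 arrays. The next lists had no common sign on the 3 arrays. HSP70 chaperones (43 cDNAs) had medians of −0.55 in B,Pl, −0.15 in bz2 and 0.18 in mutator, against −0.22 and −0.10 in b,pl. Elongation factor 1-alpha (58 cDNAs) had 0.01, −0.13 and 0.22, against 0.11 and −0.82. Glutathione and antioxidant enzymes (18 cDNAs) had 0.09, −0.09 and −0.12, against 0.01 and −0.27. The phenylpropanoid list held a single cDNA, of the lignin enzyme CAD2, at −0.56, 0.01 and −0.24, against 0.04 and −0.21.

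S-adenosylmethionine synthetase and inositol phosphate synthase, 51 cDNAs of sam2 and INO1, set the b,pl arrays furthest apart among these lists. Their medians were −0.04 in B,Pl, −0.24 in bz2 and −0.02 in mutator, against −0.65 on b,pl replicate 1 and 0.67 on b,pl replicate 2. On b,pl, 50 of 51 were negative on replicate 1 and 1 of 51 on replicate 2, so the centred ratio, before its sign was turned for the dye of PE, was negative on both arrays for most of them.

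**Figure D4:**
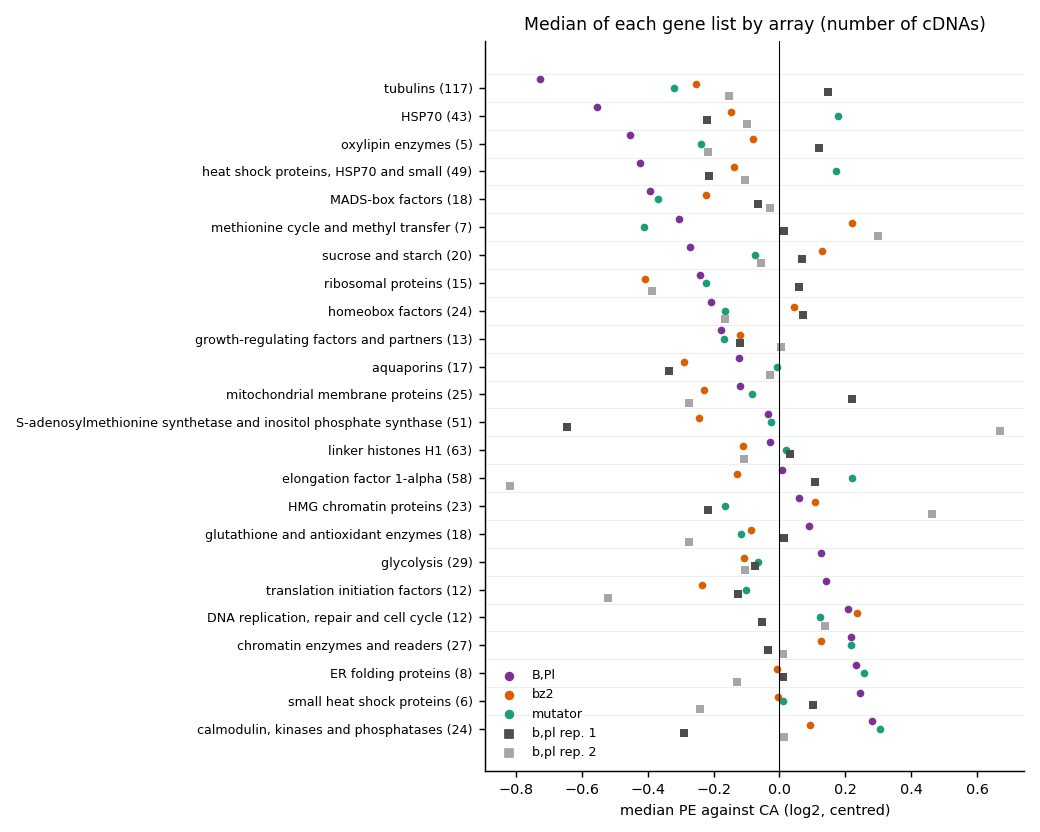
Median log2 of PE against CA for each gene list of at least 5 cDNAs, by array, with circles for B,Pl, bz2 and mutator and squares for the b,pl arrays. Tubulins lie farthest left in B,Pl, and the squares of b,pl lie apart from each other for the list of S-adenosylmethionine synthetase and inositol phosphate synthase.

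By gene, 126 of 213 genes had the same sign on B,Pl, bz2 and mutator, 53 positive and 73 negative, where 29.3% of all cDNAs were positive and 29.9% negative on all 3. Without centring these were 9 and 154 genes. Of the 126, both b,pl arrays had that sign too for 32, the opposite sign for 24, and differed from each other for 68. The other 2 had no value on b,pl replicate 2. At gene level limma called 0 genes, with 15 of 213 at unadjusted p under 0.05 for the shared effect. In that fit 507 of 4779 genes and unnamed cDNAs had such a p.

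Among positive genes with several cDNAs, hda113 (LOC542568), a histone deacetylase, had gene values of 0.76 in B,Pl, 0.56 in bz2 and 0.44 in mutator, against −0.01 and −0.25 on b,pl replicates 1 and 2. MSH1 (LOC732814), a mismatch repair homologue that keeps organelle genomes stable, had 1.28, 0.45 and 0.42, against −0.91 and 0.83. The cell cycle kinase wee1 (LOC541768) had 0.66, 0.43 and 0.37, against −0.15 and 0.16, and its mean over the 3 arrays was 0.49, or 0.30 with the fitted dye term taken off. The 3 arrays lay above both b,pl arrays for hda113 and wee1, as for 16.3% of 209 genes, and b,pl replicate 2 lay among them for MSH1. For paa the values were 0.63, 0.74 and 0.59, against 0.10 and 0.68. LOC100101510 had 0.87, 0.44 and 0.51, against −0.23 and −0.74. GRF8 (LOC100101540), a growth-regulating factor, mbd106, a methyl-CpG-binding domain protein, stomatin1 (LOC541819), dps1 (LOC542379), a dihydrodipicolinate synthase of lysine synthesis, and MFS18 (LOC542405) had smaller values, between 0.15 and 0.63 on the 3 arrays. With the dye term taken off, the mean of GRF8 was 0.12 in place of 0.35, and that of MFS18 was 0.11 in place of 0.20.

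Positive genes with a single cDNA included enzymes of protein turnover and folding and of photosynthetic electron transfer. PDIL5-4 had 1.31 in B,Pl, 0.78 in bz2 and 0.79 in mutator, against −0.64 and 0.88 in b,pl. The protein phosphatase pp2c-1 (LOC541808) had 1.28, 1.01 and 0.60, against −1.26 and 1.06. fnr1 (LOC542713), which passes electrons from ferredoxin to NADP, had 0.68, 0.58 and 0.68, against −0.33 and −0.75. The cDNAs of LON2, PDIL5-4 and pp2c-1 were negative on b,pl replicate 1 and positive on b,pl replicate 2, whereas fnr1 was negative on both. On the indirect route for B,Pl, LON2 stood at −0.93, PDIL5-4 at −0.81, pp2c-1 at −0.34 and fnr1 at −1.99, each opposite to the B,Pl array.

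Among negative genes, zmm31 (LOC542040), a MADS-box gene, had gene values of −0.94 in B,Pl, −0.63 in bz2 and −1.15 in mutator, against −0.02 and 0.05 on b,pl replicates 1 and 2. PDHE1-B (LOC541705), the beta subunit of pyruvate dehydrogenase that feeds acetyl-CoA into metabolism, had −0.68, −0.50 and −0.87, against 0.16 and 1.49. pcna2 (LOC542357), the sliding clamp of DNA replication, had −0.71, −0.40 and −0.41, against −0.20 and −0.29. All 3 genes were lower on the B,Pl, bz2 and mutator arrays than on either b,pl array. Of all 209 genes with a value on the 5 arrays, 16.3% lay below both b,pl arrays in this way and 16.3% above both, and these 3 were chosen for low values. Lhcb5-2 (LOC542320), a light-harvesting antenna protein, had −0.43, −0.31 and −0.72, against 0.37 and 0.36. Ribosomal protein gene rpl17 (LOC541667) had −0.33, −0.44 and −0.37, against 0.19 and −0.39. The MADS-box gene zap1 (LOC542257), the growth-regulating factor GRF2 (LOC100125640) and zfp30 (LOC606475) lay between −0.24 and −0.60 on the 3 arrays.

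Single cDNAs among the negative genes belonged to mad2 (LOC542621), of the spindle checkpoint, the homeobox gene ocl3 (LOC542008) and SET102 (LOC542678), a SET-domain protein, besides tub6. mad2 had −1.38 in B,Pl, −0.41 in bz2 and −0.59 in mutator, against 0.10 and −0.04 in b,pl. SET102 had −0.71, −0.35 and −0.81, against −0.0016 and 0.11. ocl3 had −0.66, −0.39 and −0.44, against −0.23 and −0.36, which made it negative on all 5 arrays.

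**Figure D5:**
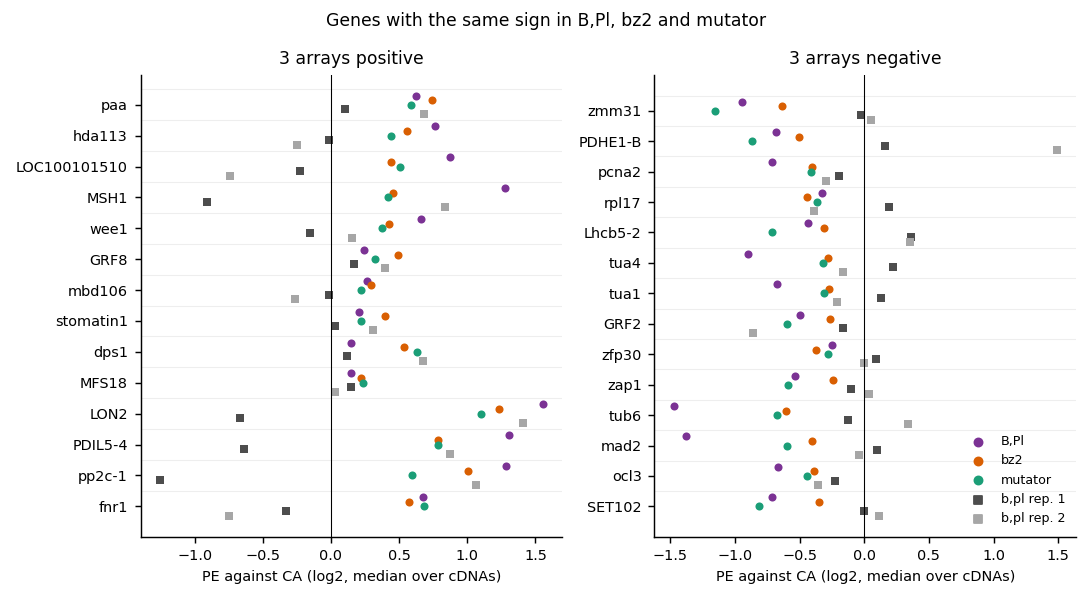
Gene values (median over cDNAs, log2 of PE against CA) of the genes with the largest smallest-of-3 values in either direction, with circles for B,Pl, bz2 and mutator and squares for b,pl. For PDHE1-B, Lhcb5-2, fnr1, hda113 and LOC100101510 the squares lie on the other side of the circles, and for LON2, PDIL5-4 and pp2c-1 the squares lie on both sides of 0.

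How b,pl differed was read from genes whose values on both b,pl arrays had the sign opposite to all of B,Pl, bz2 and mutator. There were 24 such genes, 10 positive and 14 negative in the 3 genotypes. They made up 19.4% of the 124 genes that had a common sign in the 3 genotypes and a value on both b,pl arrays, next to 19% of 3046 cDNAs over the whole array, while both b,pl arrays had the common sign for 25.8% of genes and 25.8% of cDNAs. The share among genes was thus near that of all cDNAs, and the genes below are given as descriptions. Ranked by the smallest of the 5 values, fnr1 and LOC100101510 came first on the positive side. On the negative side these were Lhcb5-2 and PDHE1-B, with the values given above. The gene fnr1 rests on 1 cDNA, and its fitted difference from b,pl was 0.82 with an SE of 0.85. Both cDNAs of Lhcb5-2 were negative on the 3 arrays and positive on both b,pl arrays. Of the 3 cDNAs of PDHE1-B, that at spot 1864 was negative on both b,pl arrays, at −0.34 and −0.38.

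Further positive genes of this kind were crt2 (LOC542732), a calreticulin of the endoplasmic reticulum, at 1.03, 0.25 and 0.96, against −0.08 and −3.08, and ald1 (LOC542261), a glycolytic aldolase, at 0.40, 0.06 and 0.42, against −0.43 and −0.18. On the negative side aos1, the allene oxide synthase of jasmonate synthesis, had −0.45, −0.08 and −0.41, against 0.12 and 0.44. HMT-2 (LOC541874), a homocysteine methyltransferase, had −0.08, −0.21 and −0.50, against 0.11 and 0.30. The gap of crt2 is largest on b,pl replicate 2, the array with the widest spread.

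The named cDNAs with the smallest p are given because none passed. For the shared effect they were stomatin1 at 0.65 (SE 0.12), hox3 at 1.01 (SE 0.24), ocl4 at 0.96 (SE 0.23), pep7 (LOC542479) at −0.68 (SE 0.17) and ANT1 at −0.58 (SE 0.16). Each had a limma adjusted p of 0.39. The cDNA of pep7, a phosphoenolpyruvate carboxylase, had −0.45 in B,Pl, −0.76 in bz2 and −0.86 in mutator, against 0.07 and 0.53 in b,pl. For pep7 the other 4 cDNAs were also negative in bz2 and mutator, and they were negative on b,pl replicate 1.

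For the difference between the 3 genotypes and b,pl, the named cDNAs with the smallest p were of pep7 at −0.98 (SE 0.28), CaM1 at 1.27 (SE 0.37), ocl4 at 1.22 (SE 0.37), tua4 at −1.04 (SE 0.33) and OBF1 at 0.64 (SE 0.21), each with a limma adjusted p of 0.671. The tua4 cDNA had −0.73 in B,Pl, −0.77 in bz2 and −0.70 in mutator, against 0.34 and 0.46 in b,pl. The CaM1 cDNA had 0.08, −0.01 and 0.18, against −0.60 and −1.77. OBF1 had 0.32, −0.12 and 0.37, against −0.21 and −0.80. These cDNAs were chosen for this difference, so that the lack of overlap between the 3 arrays and b,pl follows from the choice. Of 5123 cDNAs, 16.4% lay above both b,pl arrays on all 3 and 17.7% below.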

How the data were processed

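Per spot, the authors deposited 1 log2 ratio between both channels of an array. How they scanned, background-corrected and normalised is not given in the sources used here. Base 2 was read from the values. The 3 consecutive spots of a cDNA were averaged, and the median of each array was subtracted. Groups and dyes came from the array titles. On 4 of the 27 arrays, 0 of them among the 5 with PE and CA of a genotype, the dye labels conflict and the titles were followed.

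All arrays entered 1 linear model (18 groups relative to b,pl CA and a dye term, 8 residual degrees of freedom, 2.42 added by shrinkage) with limma 3.58.1 in R 4.3.3. It was solved per cDNA over the arrays that measured it, with at least 14 arrays required. Tests were two-sided, with adjusted p by Benjamini and Hochberg. P-values measure the spread between arrays, which may be technical. The fit was tested on simulated data.

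Genes named in the text were those with 2 or more cDNAs measured on all 5 arrays and the same sign on B,Pl, bz2 and mutator, ranked by the smallest size (10 each way, and 4 each way for genes with 1 cDNA). Added were genes with both b,pl arrays opposite (6 each way), the 5 named cDNAs with the smallest p per test, the genes next to the 2-fold rule, and up to 4 genes with the most cDNAs of a list. Genes and lists were chosen with earlier results of these data known. The lists of MADS-box, homeobox and growth-regulating factors, of oxylipin enzymes and of folding proteins of the endoplasmic reticulum were added after the annotation was seen. RefSeq names (Zm-B73-REFERENCE-NAM-5.0) matched 208 of 213 genes. No coordinates or sequences were used. Alternatives covered centring, scaling, spot summary, missing spots, dye term, numerator, doubtful dye labels, array position and left-out arrays.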

Additional observations from a re-analysis of the deposited data

Results flagged for a closer look

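In 24 of the 213 genes every array of B,Pl, bz2 and mutator lay on one side of 0 and both b,pl arrays on the other, and 14 of them come under the naming rules and are listed. The value given is the mean gene value of the 3 genotypes minus the mean of both b,pl arrays. It was positive for hda113 (0.718), LOC100101510 (1.09), mbd106 (0.403), fnr1 (1.18), LOC542766 (0.292), crt2 (2.33), ald1 (0.599) and LOC541999 (1.18). It was negative for PDHE1-B (−1.51), Lhcb5-2 (−0.848), aos1 (−0.596), HMT-2 (−0.468), rpp3 (−0.642) and LOC542345 (−0.378). The beta-tubulin gene tub3, described with its family, had the pattern too, with means of −0.304 in the 3 genotypes and 0.184 in b,pl. With the fitted dye term taken off, the mean of LOC541999 over the 3 genotypes was −0.12 in place of 0.18, and that of LOC542766 was 0.19 in place of 0.11. A limma fit with the cDNAs of a gene averaged tested these differences and called 0 of them. Its adjusted p was 0.661 for LOC100101510, PDHE1-B, Lhcb5-2, crt2 and ald1, and at most 0.780 for the rest, the value of fnr1. All but hda113 and mbd106 were named by a rule that asks for this pattern. Those genes too are listed here because they have it, so the pattern itself is no support for any of the 14.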

How the results depend on the processing

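The 0 calls for B,Pl and for mutator held under every alternative that could be fitted. With the 5 arrays alone and a dye term, calls were 922 for the shared effect, 2 for the difference from b,pl, 738 for b,pl and 887 for the dye. B,Pl, bz2 and mutator singly could not be fitted there, and all spread came from their arrays. For bz2 there was 1 call without centring, with all arrays and no dye term, read as group over other channel and with B,Pl PE replicate 3 turned, and 2 with scaled arrays. Leaving out 1 array at a time (17 fits) gave 0 to 1 calls for the shared effect, 0 to 427 for the difference, 0 to 1 for bz2 and 0 to 645 for b,pl, with the upper value for b,pl and the difference reached without b,pl PE replicate 1. The single calls came without B,Pl CA replicate 1 for both effects and without B,Pl PE replicate 3 for the shared effect. Where a group was left with 1 array, its spread was taken from the other groups. The 44 shared cDNAs became 246 at 1.5-fold, 4 at a size of at least 1.5, 15 with scaled arrays and 11 with the indirect route for B,Pl. The 12 lists with a common sign became 25 without centring. The sign of b,pl PE replicate 1 or of B,Pl PE replicate 2 turned, chosen after seeing the data, gave 0 calls for all 7 tests. With the dye term taken off, 9 of 36 named gene values moved by more than their SD, and without centring 31 did. For the difference from b,pl, the CaM1 and OBF1 cDNAs had the other sign in 2 alternatives each. PE and CA were paired within each of the 5 arrays. A pairing of plants between arrays could not be used because the titles carry no replicate numbers. Promoter motifs were not analysed here.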
